A study of Drosophila melanogaster with 6 samples.

Results

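Hemocyte and collagen genes were examined in the pupal brain of Drosophila melanogaster. The 9 genes were Hml, NimC1, eater, Sr-CI, Pxn, Col4a1, vkg, Ppn and srp, found by symbol among the 17807 genes of the count table. All 9 had counts in every library. RNA was sequenced from brains dissected 24 h after puparium formation, with 3 libraries of each genotype, WT and TetAXXC, that the labels describe as independent biological replicates. In the TetAXXC stock the CXXC zinc finger of Tet is mutated, an edit made by CRISPR/Cas9 cutting and homology-directed repair in a nos-Cas9 stock, with the DsRed marker removed afterwards by piggyBac. The strain of the WT stock and the sex of the pupae are not given in the sources used here. The labels state 30 brains per genotype and do not say whether this holds for each library.

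Hemocytes are the blood cells of the fly. Most are plasmatocytes, which engulf microbes and dying cells through receptors of the Nimrod and scavenger families, and which secrete clotting and matrix proteins. Collagen IV is a main component of basement membranes, including the neural lamella that wraps the brain. In the fly larva it is secreted by fat body and hemocytes. The trimer is built from the chains encoded by Col4a1 and vkg, and peroxidasin cross-links collagen IV outside the cell.

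The libraries held 17861742 to 19521285 gene counts. Tet, the edited gene, had a fitted difference of 0.13 log2 units (SE 0.10, edgeR adjusted p = 0.499). Counts per gene do not resolve the edited domain. Markers of testis, listed with earlier results known, moved with genotype. Their summed level was 78.5 to 173 CPM (a gene's counts scaled to the library's total, the usual CPM) in WT and 491 to 1485 CPM in TetAXXC, and 15 of the 20 testis markers tested were higher in TetAXXC, against 12.1% of all genes tested. TetAXXC replicate 1 had the highest testis sum and TetAXXC replicate 2 the lowest of its group. All 8 glia markers and all 9 neuron markers had counts in every library. Of the 8 glia markers 4 were lower in TetAXXC, moody, wrapper, alrm and Gat, against 3.17% of all genes tested. This list too was chosen with earlier results known, and Gat had the smallest p-value of all genes tested. The share is therefore a description and not a test. The calls for moody and wrapper were lost without WT replicate 2 and without WT replicate 3.

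Both collagen IV genes were higher in TetAXXC, by about the same factor, while the other 7 genes did not pass the threshold of an edgeR adjusted p under 0.05. Col4a1 was 1.33-fold and vkg 1.34-fold higher. The more abundant matrix genes Pxn and Ppn, the receptors, the clotting gene Hml and the blood cell factor srp had fitted folds between 0.608 for eater and 1.24 for NimC1. Thus 2 of 9 genes were called, against 15.2% of the 11198 genes tested, and both were called in the upward direction, against 12.1%. None was called lower, against 3.17%. The share of called genes is therefore near the background, and the count says nothing particular about the 9 genes.

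**Figure D1:**
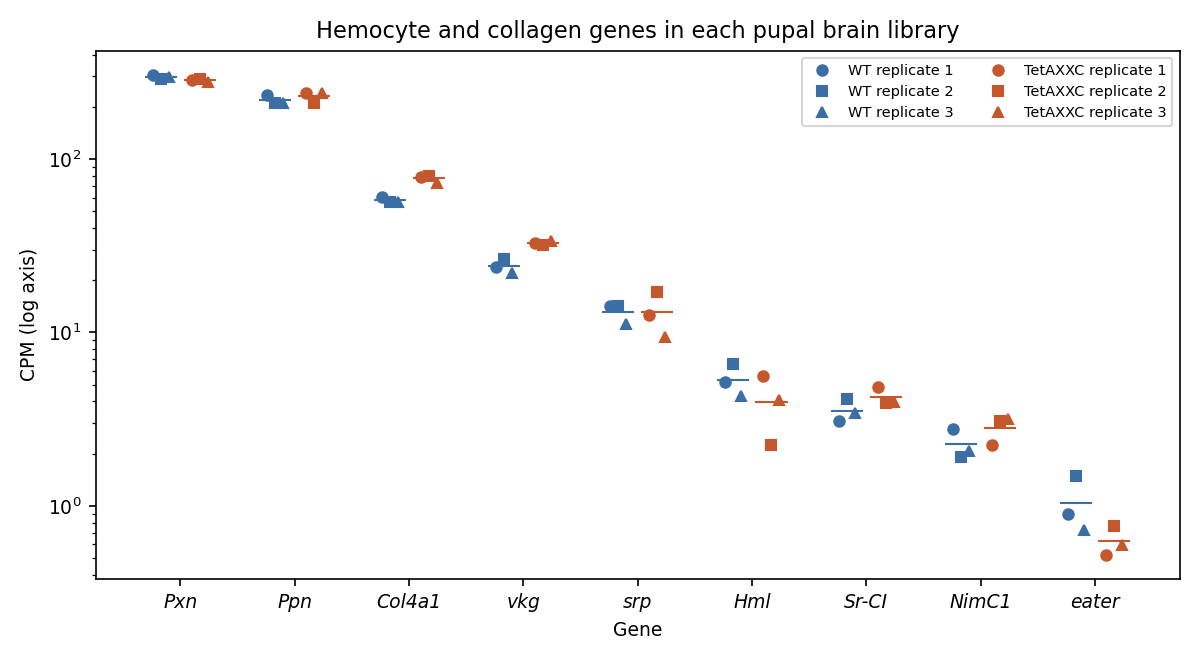
Level of each gene in CPM (log axis) in every library, WT in blue and TetAXXC in orange, with the replicate number as the marker shape and the group mean as a line. Col4a1 and vkg lie higher in all TetAXXC libraries than in all WT libraries, and the relative scatter is widest for eater in WT and for Hml in TetAXXC.

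Col4a1 (FBgn0000299, chromosome 2L, 5029609 to 5037279, plus strand) encodes the alpha 1 chain of collagen IV. It was counted at 60.7, 56.3 and 56.3 CPM in WT replicates 1, 2 and 3, and at 78.7, 80.2 and 73.1 CPM in the TetAXXC replicates. The lowest TetAXXC library lay well above the highest WT library. The WT mean was 57.7 ± 2.55 CPM and the TetAXXC mean 77.4 ± 3.72 CPM (SD, n = 3 each). Fitted across all genes, the difference was 0.41 log2 units (SE 0.05, 95% interval 0.29 to 0.54, edgeR adjusted p = 0.0164).

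The gene vkg (viking; FBgn0016075, chromosome 2L, 5012144 to 5028191, minus strand) encodes the alpha 2 chain. Its levels were 23.9, 26.6 and 22.1 CPM in the WT replicates and 32.7, 31.8 and 33.6 CPM in the TetAXXC replicates. Again the groups did not overlap, and the TetAXXC libraries lay closer together than the WT libraries. The means were 24.2 ± 2.24 and 32.7 ± 0.90 CPM (SD, n = 3 each). The fit gave a difference of 0.43 log2 units (SE 0.08, 95% interval 0.24 to 0.61, edgeR adjusted p = 0.0187).

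These collagen genes lie head to head, with 1417 bp and no annotated gene between them. The ratio of Col4a1 to vkg counts was 2.54, 2.12 and 2.54 in the WT libraries and 2.41, 2.53 and 2.18 in the TetAXXC libraries. The ranges overlapped, and the means were 2.40 ± 0.24 and 2.37 ± 0.18 (SD, n = 3 each). On the log2 scale this difference of -0.02 had a two-sided exact permutation p of 0.8, where the smallest p for 3 against 3 is 0.1. Scaled for exon length, the ratio lay between 2.23 and 2.68 in the 6 libraries, so Col4a1 was the more abundant transcript in each.

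The size of the collagen difference moved little between fits, but the call depended on the libraries used. With 1 library left out, the log2 fold change of Col4a1 ranged from 0.36 to 0.45 and that of vkg from 0.34 to 0.49. Without WT replicate 2 edgeR gave both genes an adjusted p of 0.0816. When WT replicate 3 was left out the values were 0.0683 for Col4a1 and 0.0708 for vkg, and without TetAXXC replicate 3 vkg had 0.0522. The genes called in the whole table fell from 1707 to 54 without WT replicate 2, to 104 without WT replicate 3 and to 905 without TetAXXC replicate 3. Under limma-voom Col4a1 passed at 0.0257 and vkg did not, at 0.0553.

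**Figure D2:**
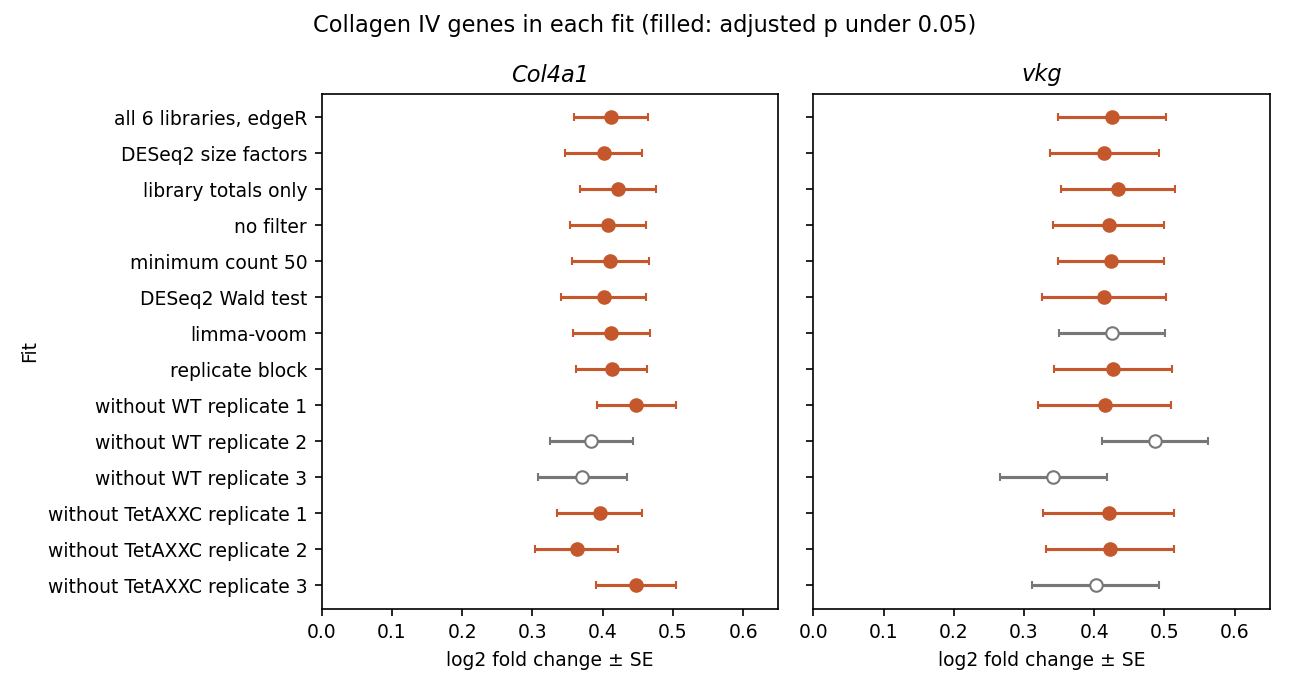
The log2 fold change of Col4a1 and vkg (TetAXXC over WT, point) with its standard error (bar) in each fit, filled where the adjusted p was under 0.05. All 14 estimates of each gene are positive, between 0.34 and 0.49, and open points mark the fits in which the call was lost.

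Testis, fat body and muscle markers were set beside the collagen values. Within TetAXXC, replicate 2, the library with the lowest testis sum, had the highest level of Col4a1 and the lowest of vkg. For both genes the 95% exact Poisson intervals of the TetAXXC libraries, which cover counting error only, overlapped. Without TetAXXC replicate 1, the library with the highest testis sum, the differences were 0.40 log2 units for Col4a1 and 0.42 for vkg (edgeR adjusted p = 0.0208 and 0.0405). The remaining TetAXXC libraries had testis sums of 491 and 674 CPM, still above the WT range of 78.5 to 173 CPM. Leaving out replicate 1 therefore does not separate testis level from genotype. The 9 fat body markers all had counts in every library, and their summed level was 2017 to 2823 CPM in WT and 1882 to 2463 CPM in TetAXXC. Of these, listed with earlier results known, 2 of 9 were lower in TetAXXC, Fbp1 and Fbp2, against 3.17% of all genes tested. None was higher, against 12.1%. Fbp1 was called in every alternative fit, and Fbp2 in 1 of the 6 fits with a library omitted, that without TetAXXC replicate 2. The 9 muscle markers also had counts in every library. Their summed level was 464 to 648 CPM in WT, highest in WT replicate 2, and 475 to 500 CPM in TetAXXC. No muscle marker passed the threshold, against 15.2% of all genes tested. What these tissues contribute to the collagen difference was not tested. In whole brains, more collagen-producing cells and more collagen RNA per cell cannot be told apart.

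**Figure D3:**
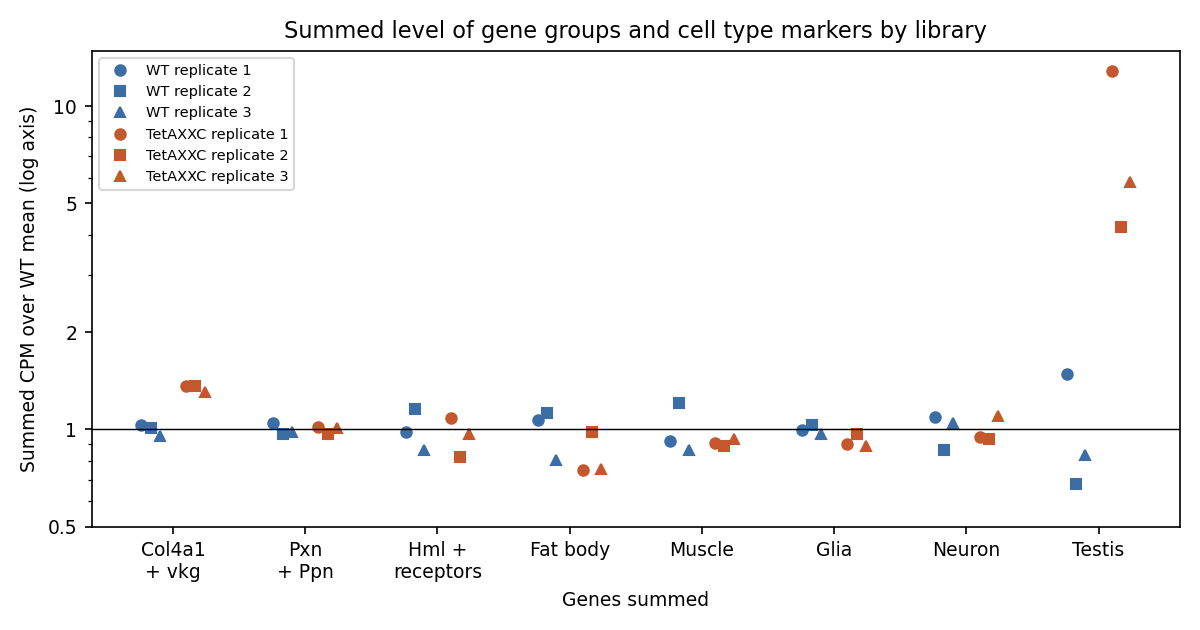
Summed CPM of gene groups and of cell type marker lists in each library, divided by the mean of the WT libraries (log axis), with WT in blue and TetAXXC in orange. The collagen sum is higher in all TetAXXC libraries, the Pxn and Ppn sum is level, the fat body sum overlaps between genotypes, and the testis sum differs most. The muscle sum is highest in WT replicate 2.

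Pxn and Ppn, the other matrix genes, took most of the counts. Together they held 78.3% to 83.5% of the counts of the 9 genes in a library, and their summed level was 516 ± 21.7 CPM (SD, n = 3) in the WT libraries and 516 ± 13.5 CPM (SD, n = 3) in the TetAXXC libraries. The collagen genes held 12.9% to 17.5%.

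Pxn (FBgn0011828, chromosome 3L, 2601455 to 2630064, minus strand) encodes peroxidasin, an extracellular peroxidase. It was counted at 307, 291 and 296.5 CPM in WT and 285, 289 and 279 CPM in TetAXXC. All TetAXXC libraries lay below all WT libraries, but by a small margin. In the fit, TetAXXC minus WT came to -0.08 log2 units (SE 0.04, 95% interval -0.16 to 0.01, edgeR adjusted p = 0.265). A fall of Pxn beyond a fold of 0.892 lies outside this interval. The exons of Pxn share 82 bp with CG16986 on the other strand and 151 bp with lncRNA:CR45660 on the same strand, which is 1.38% and 2.54% of its exonic length.

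Ppn (FBgn0003137, chromosome 3R, 28520665 to 28540324, minus strand) encodes papilin, a large matrix glycoprotein related to ADAMTS metalloproteases. Its levels were 234, 209.9 and 209.6 CPM in WT and 241, 211 and 242 CPM in TetAXXC. The groups overlapped, with TetAXXC replicate 2 among the WT values. Fitted across all genes, the difference was 0.08 log2 units (SE 0.07, 95% interval -0.09 to 0.25, edgeR adjusted p = 0.589).

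Set against Pxn and Ppn within each library, the collagen genes were higher in TetAXXC. The ratio of Col4a1 to Pxn counts was 0.198, 0.193 and 0.190 in the WT libraries and 0.276, 0.277 and 0.262 in the TetAXXC libraries, a difference of 0.49 on the log2 scale. The ratio of vkg to Pxn differed by 0.50. Against Ppn the differences were 0.33 for Col4a1 and 0.35 for vkg. Each of these 4 ratios separated the genotypes, with a two-sided exact permutation p of 0.1, the smallest that 3 against 3 allows. For the ratios to Pxn this outcome was fixed in advance. The collagen genes already lay higher, and Pxn lower, in every TetAXXC library, so these p-values add nothing to the fits. These ratios were chosen after the values had been seen. Over all genes tested, the groups did not overlap for 32.1%, and among the 9 genes they did not overlap for 3, Pxn, Col4a1 and vkg.

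**Figure D4:**
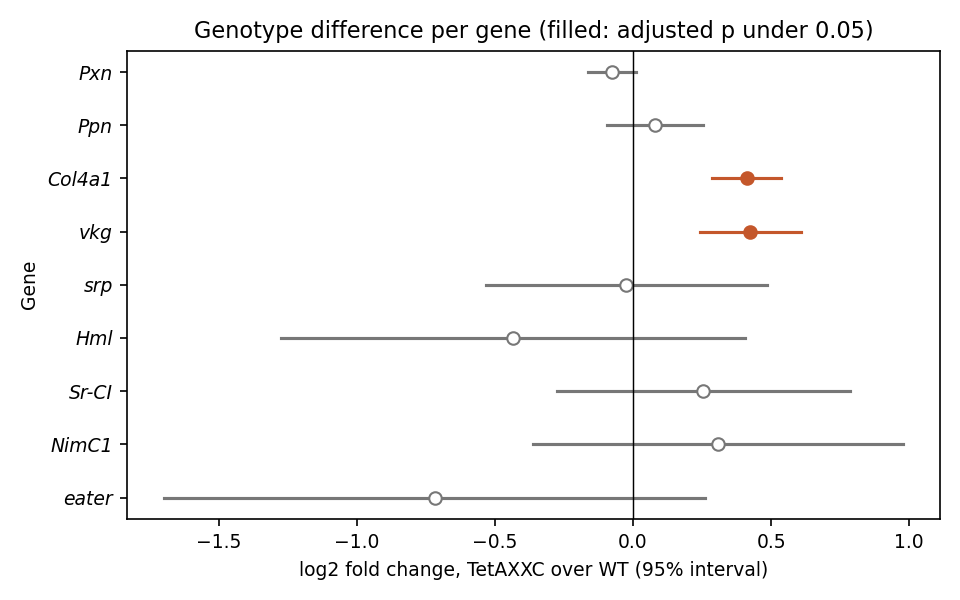
The log2 fold change of each gene (TetAXXC over WT, point) with its 95% interval (line), filled where the adjusted p was under 0.05. The intervals of Col4a1 and vkg lie above 0, that of Pxn is narrow and reaches just above 0, and those of Hml, NimC1 and eater are the widest.

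The receptors and Hml were the least abundant of the 9 genes, and their levels rest on few reads. NimC1, eater and Sr-CI together had 111 to 152 counts per library, and Hml had 44 to 120. With Hml they made up 1.57% to 2.31% of the counts of the 9 genes. He, the hemese gene often used as a marker of all larval hemocytes, had 0 to 4 counts per library. The 0 was in TetAXXC replicate 2, and He was singled out after its values had been seen. Of the 31 other hemocyte genes listed, He among them, 27 had counts in every library. The summed level of the whole list was 1081 to 1173 CPM in WT and 1052 to 1138 CPM in TetAXXC. Its largest parts were drpr, NimA, Glt and Tep2, with WT means of 229, 160, 113 and 105 CPM. Others were near the floor, such as PPO1 at 0.43 and Sr-CIII at 0.04 CPM in WT. How much of the sum came from hemocytes was not tested. The genes listed thus ranged from near absent, as He, to abundant, as Pxn. Which cells of the brain gave these counts was not tested, so the level of Pxn is not a level of hemocytes.

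Hml (FBgn0029167, chromosome 3L, 13846054 to 13860001, plus strand) encodes hemolectin, a large secreted protein of the hemolymph clot. Its levels were 5.16, 6.59 and 4.31 CPM in WT and 5.59, 2.25 and 4.07 CPM in TetAXXC. TetAXXC replicate 2 stood lowest, with 44 counts and a 95% exact Poisson interval of 1.64 to 3.03 CPM, which covers counting error only. TetAXXC replicate 1 lay within the WT range. The fit gave a difference of -0.43 log2 units (SE 0.36, 95% interval -1.28 to 0.41, edgeR adjusted p = 0.528). With a library left out it ranged from -0.77, without TetAXXC replicate 1, to -0.18, without TetAXXC replicate 2.

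NimC1 (FBgn0259896, chromosome 2L, 13973158 to 13976769, minus strand) encodes a Nimrod receptor of plasmatocytes that takes part in phagocytosis. It stood at 2.79, 1.92 and 2.07 CPM in WT and 2.24, 3.07 and 3.15 CPM in TetAXXC. WT replicate 1 lay above TetAXXC replicate 1, so the groups overlapped. In the fit, TetAXXC minus WT came to 0.31 log2 units (SE 0.28, 95% interval -0.36 to 0.98, edgeR adjusted p = 0.583).

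Sr-CI (FBgn0014033, chromosome 2L, 4121702 to 4124153, plus strand) encodes a scavenger receptor that binds bacteria. It was counted at 3.11, 4.12 and 3.42 CPM in WT and 4.85, 3.94 and 3.96 CPM in TetAXXC. The groups overlapped through WT replicate 2. Fitted across all genes, the difference was 0.25 log2 units (SE 0.22, 95% interval -0.28 to 0.78, edgeR adjusted p = 0.564).

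The gene eater (FBgn0243514, chromosome 3R, 27095867 to 27099679, minus strand), another receptor for bacteria with Nimrod repeats, was the least abundant. It had 17, 27 and 13 counts in WT and 10, 15 and 11 counts in TetAXXC, or 0.73 to 1.48 and 0.52 to 0.77 CPM. The groups overlapped. The fit gave a difference of -0.72 log2 units (SE 0.41, 95% interval -1.70 to 0.26, edgeR adjusted p = 0.347). The signs of the fitted changes were mixed, positive for NimC1 and Sr-CI and negative for Hml and eater. The summed level of these 4 genes had a WT mean of 12.2 ± 1.80 CPM and a TetAXXC mean of 11.7 ± 1.59 CPM (SD, n = 3 each). For NimC1, Sr-CI and eater, changes within their intervals were not detectable with these counts and 3 libraries per genotype.

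The gene srp (serpent; FBgn0003507, chromosome 3R, 15986152 to 16004081, plus strand) encodes a GATA transcription factor needed for hemocyte and fat body fates. Its levels were 14.2, 14.2 and 11.1 CPM in WT and 12.7, 17.1 and 9.45 CPM in TetAXXC. The highest and the lowest library were both TetAXXC. In the fit, TetAXXC minus WT came to -0.02 log2 units (SE 0.21, 95% interval -0.53 to 0.48, edgeR adjusted p = 0.969). It changed sign when WT replicate 1, WT replicate 2 or TetAXXC replicate 3 was left out, so it had no stable direction. A lncRNA on the same strand, lncRNA:CR44133, shares 938 bp of exon with srp, 16.5% of its exonic length, and had 0 to 2 counts per library.

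The genes also differed in how far the libraries of a genotype scattered. The coefficient of variation, the SD as a percentage of the mean, was 2.66% in WT and 1.88% in TetAXXC for Pxn, 4.42% and 4.81% for Col4a1, 9.26% and 2.76% for vkg, and 6.46% and 7.53% for Ppn. For srp it was 13.4% and 29.2%, and for Hml 21.5% and 42.0%. It was 38.3% and 20.1% for eater, 20.5% and 17.8% for NimC1, and 14.6% and 12.2% for Sr-CI. These percentages include counting error, which is larger for genes with few counts.

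A chi-square per degree of freedom of 1 is what counting error alone gives, and since it grows with the count it does not rank genes of unequal depth. Hml had 4.47 in WT and 13.6 in TetAXXC, so its libraries differed by more than counting error and its wide interval does not come from depth alone. Likewise srp had 4.31 and 21.1. At similar or lower counts than Hml, NimC1 had 1.77 and 1.70 and Sr-CI had 1.40 and 1.21, close to counting error. The rarest gene, eater, had 2.75 in WT and 0.49 in TetAXXC.

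Scaled to exon length as well (RPKM), which allows levels to be compared between genes, the order was the same in both genotypes. Pxn was highest, at 50.04 ± 1.33 RPKM in WT and 47.8 ± 0.90 RPKM in TetAXXC (SD, n = 3 each). It was followed by Ppn, at 22.8 and 24.3 RPKM, Col4a1, at 9.37 and 12.5 RPKM, and vkg, at 3.72 and 5.03 RPKM. Below these came srp, at 2.33 and 2.30 RPKM, Sr-CI, at 1.61 and 1.93 RPKM, and NimC1, at 0.69 and 0.86 RPKM. Hml, at 0.46 and 0.34 RPKM, and eater, at 0.31 and 0.19 RPKM, were lowest. Neighbours in this order had library ranges that did not overlap, except Hml and eater in both genotypes and srp and Sr-CI in TetAXXC. The level of Pxn exceeded that of 89.9% of the detected genes, whereas that of eater exceeded 20.9%.

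Other genes of hemocytes were called about as often as all genes. Of 31 genes listed, which cover receptors, opsonin-like proteins, clotting factors, prophenoloxidases and fate factors, 24 could be tested, 2 were higher, 2 were lower and 20 did not pass, against 15.2% of all genes called, 12.1% higher and 3.17% lower. The median log2 fold change was -0.09, against 0.004 for all genes tested. Tep4, a thioester-containing protein of the humoral defence, fell from 90.6 ± 8.18 CPM in WT to 59.1 ± 2.86 CPM in TetAXXC (SD, n = 3), which is -0.62 log2 units (edgeR adjusted p = 0.0117). It passed in all 13 alternative fits. The gene fon, which encodes the clotting factor fondue, fell from 84.4 ± 8.39 to 56.5 ± 6.44 CPM, which is -0.59 log2 units (adjusted p = 0.0167). Without WT replicate 2 its adjusted p was 0.0816.

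The higher genes of this list were atilla and drpr. The gene atilla, which encodes a surface antigen of lamellocytes, had 7, 7 and 6 counts in WT and 24, 37 and 29 counts in TetAXXC. The difference was 2.09 log2 units (SE 0.36, edgeR adjusted p = 0.0175). Draper, the engulfment receptor encoded by drpr, is expressed in glia as well as in hemocytes. It rose from 229 ± 2.53 to 258 ± 5.06 CPM, which is 0.16 log2 units (adjusted p = 0.0209). The call for atilla was lost without WT replicate 2, without WT replicate 3 and under limma-voom. That for drpr was lost in 5 of the 6 fits with a library omitted, all except that without TetAXXC replicate 1.

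**Figure D5:**
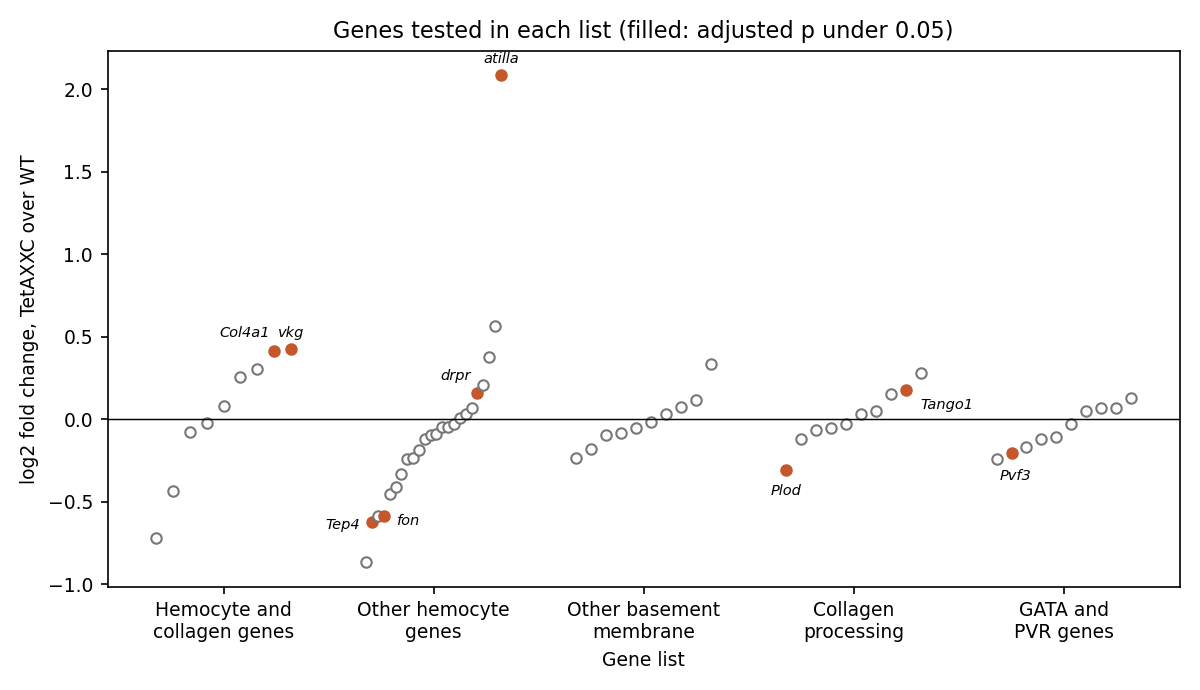
The log2 fold change (TetAXXC over WT) of each gene tested, ordered by value within each list, with genes past the threshold filled and named. Most genes of each list lie near 0, and the called genes of the other hemocyte list and of the collagen processing list lie on both sides of it.

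None of the 10 other basement membrane genes passed the threshold, and 1 of them, LanA, had an unadjusted p under 0.05. Over all genes tested 15.2% passed, and 2958 of 11198 had an unadjusted p under 0.05. The median log2 fold change of the 10 basement membrane genes was -0.04, against 0.004 for all genes tested. LanA, a laminin alpha chain, stood at 179 ± 16.2 and 159 ± 5.23 CPM, with an edgeR adjusted p of 0.123, and passed only under DESeq2, at 0.0206. Mp, the collagen XV/XVIII homologue, stood at 499 ± 13.2 and 475 ± 9.30 CPM, with an adjusted p of 0.246. Ndg, which encodes nidogen, stood at 9.99 ± 1.04 and 12.7 ± 2.43 CPM, with an adjusted p of 0.291.

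Of 11 genes that modify, export or cleave collagen and other matrix proteins, 10 could be tested, and 1 was higher and 1 lower, against 12.1% and 3.17% of all genes tested. Tango1, which encodes a protein needed to export collagen from the endoplasmic reticulum, had 3316, 3333 and 3277 counts in WT and 3913, 3957 and 3828 counts in TetAXXC. The groups did not overlap in CPM, and the difference was 0.18 log2 units (edgeR adjusted p = 0.0240). Plod, the lysyl hydroxylase of collagen, had 3557, 3876 and 3413 counts in WT and 2981, 3299 and 2863 counts in TetAXXC. It fell, with a difference of -0.31 log2 units (adjusted p = 0.0176). PH4alphaEFB, a prolyl hydroxylase subunit, stood at 124 ± 7.75 and 114.98 ± 6.02 CPM, with an adjusted p of 0.227. Tango1 kept its call in 1 of the 6 fits with a library omitted, that without TetAXXC replicate 2, and Plod in 3.

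Among 10 genes around srp, the other GATA factors, their partners and the PDGF/VEGF-related ligands and receptor that guide hemocytes, 1 passed the threshold, against 15.2% of all genes tested. Pvf3, a ligand of the receptor Pvr, fell from 259 ± 10.4 CPM in WT to 227 ± 2.56 CPM in TetAXXC (SD, n = 3), which is -0.20 log2 units (edgeR adjusted p = 0.0196). It kept the call in 2 of the 6 fits with a library omitted. The GATA partner ush and the GATA factor grn differed by -0.12 and -0.10 log2 units (edgeR adjusted p = 0.334 and 0.368).

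The genes whose levels most resembled the summed level of Hml, NimC1, eater and Sr-CI over the 6 libraries were NiPp1, Ufl1, CG32554, Iml1 and CG14667. Their Pearson correlations lay between 0.957 and 0.969, and they were picked from the 8519 genes whose mean reached 2 log2 CPM. In each of them the WT and TetAXXC ranges overlapped, and with 188 to 257 counts per library in the sum this order is a description of these libraries only.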

How the data were processed

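Poly(A)-selected, strand-specific libraries of pupal brain RNA were analysed. The authors deposited raw counts of reads for each gene in each library, with merged exon lengths. The layout is that of featureCounts, per the file headers. Trimmomatic 0.39, HISAT2, SAMtools, featureCounts and DESeq2 and the builds BDGP6 and dm6 are named in the submitters' processing notes. The strand setting is not given in the sources used here, and reads shared by overlapping genes may have been dropped. Of the 9 genes, 8 had the same start and end in Ensembl release 115 (BDGP6). No sequence was used.

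CPM were computed from library totals without scaling, and RPKM from CPM and the deposited exon length. Genotype was tested over all 11198 genes kept by filterByExpr (minimum count 10, minimum total 15) with edgeR 4.0.16 in R 4.3.3 (TMM, estimateDisp, glmQLFit with legacy dispersion, glmQLFTest). All 9 genes passed this filter. The two-sided p-values were corrected by Benjamini-Hochberg across the whole table, and 0.05 was the threshold. The biological coefficient of variation was 0.189. The 95% intervals used the t quantile of the fitted degrees of freedom. The procedure was also run on simulated counts in which all genes shared the same dispersion. That run does not show how well the calls hold in these libraries. Alternatives were other scalings, filters, DESeq2 1.42.0, limma-voom (limma 3.58.1), a replicate block and each library left out.

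The genes and lists were chosen with earlier results of these data known. The lists share genes. Those of ush, lz and Pvr are in both the other hemocyte list and the list around srp. Tig and Glt are in both the other hemocyte and the basement membrane list. Named genes were the 9 genes, Tet, list members past the threshold, the 3 smallest p-values of each list of related genes, and the 5 most correlated genes. Marker list genes and features named for overlap were added after their values were seen.

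Libraries of 1 genotype differed by more than sampling noise, with a chi-square per degree of freedom of 6.94 to 17.8 between replicates. Deviations from the group means correlated across genes between same-numbered libraries at 0.599, 0.422 and 0.404. The labels state no pairing, and the main fit used none. A fit with the replicate number as a block was run as an alternative.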

Additional observations from a re-analysis of the deposited data

How the results depend on the processing

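The number of called genes was 1707 with all libraries, 970 with a minimum count of 50, 130 under limma-voom and 2362 with the replicate block, and it ranged from 54 to 2095 with a library left out. Of the 9 genes, 2 were called in the main setting, 1 under limma-voom, and 0 to 2 with a library left out. The replicate block was run for the 9 genes, Tet, the genes named from the lists of related genes and the called glia and fat body markers, and changed no call among them. Col4a1 and vkg had blocked log2 fold changes of 0.41 and 0.43, with edgeR adjusted p of 5.08e-04 and 0.00656. In the paired exact permutation test the Col4a1 to vkg ratio had a p of 1, where 0.25 is the smallest possible.

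With all 6 libraries, 61 values of the 9 genes under another setting had the same sign and the same call as the main value, and 1, vkg under limma-voom, lost the call. With a library left out, 46 values were the same in both, 5 lost the threshold and 3, all of srp, changed direction, with srp between -0.28 and 0.16. Over all alternatives the adjusted p ran from 2.96e-09 to 0.0816 for Col4a1 and from 4.04e-05 to 0.0816 for vkg. Among the genes run beside the 9, 8 calls were lost under limma-voom, those of atilla, drpr, Plod, Tango1, Pvf3, moody, wrapper and Fbp2. The cause of the lost calls was not tested. Other scalings shifted the median over all genes by at most 0.011 log2 units. Depth limits eater, NimC1 and Sr-CI, at 10 to 93 counts per library.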
